A study of Mus musculus with 16 samples.

Results

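The E15.5 cortices of all *Knl1*-deleted mice, 4 *Knl1* cKO and 4 *Knl1 Trp53* dKO, were pooled and compared with 7 ctrl cortices, to describe what changed after loss of *Knl1* whether or not p53 was present. These 8 deleted and 7 ctrl mice are all 15 mice of the series, which holds 16 libraries. UMI RNA-seq by Click-seq was made from rRNA-depleted total RNA of micro-dissected cortex, 1 library per mouse except cKO mouse S2, whose 2 libraries were summed. Both deleted genotypes carry *hGFAP-Cre*, which recombines floxed alleles in cortical neural progenitor cells (NPCs) and their progeny and spares interneurons born in the ventral forebrain, so every sample mixes recombined and unrecombined cells. The cKO mice 5, 7, S2 and F3 lose *Knl1*, named *Casc5* in the labels, and the dKO mice T2, T8, F1 and F7 lose *Knl1* and *Trp53*. The ctrl mice 2, 6, S1, S3 and T3 are labelled wild type for *Casc5* and T4 and T5 heterozygous. Whether a ctrl mouse carries Cre, and the *Trp53* alleles of the ctrl mice, are not in the labels. The mice are of mixed genetic background. Each of the 3 groups held both sexes.

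KNL1 is a scaffold of the kinetochore, where it recruits the kinases and adaptors of the spindle assembly checkpoint and links microtubules to the chromosome. In the embryonic cortex, radial glia divide along the ventricle and produce intermediate progenitors, which divide in the subventricular zone and produce excitatory neurons, whereas interneurons arrive by migration from the ganglionic eminences. p53 is a transcription factor stabilised by DNA damage and prolonged mitosis that activates genes of cell cycle arrest and apoptosis. The dKO mice lack it in the recombined cells, so that a change seen in cKO and again in dKO was seen with and without it.

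Batch 1 held ctrl 2, 6 and S3 with cKO 5, 7 and S2, and batch 3 held ctrl T3, T4 and T5 with the 4 dKO mice and cKO F3. Ctrl S1 was alone in batch 2 and drops out of any fit with batch as a covariate. Litter 4 (F1, F3 and F7) had no ctrl mouse and stood apart in its share of counts on rRNA genes, 0.0293%, 0.00964% and 0.0458% against at most 0.0012% in the other 12 mice. Totals were 399832 to 3266227 counts in ctrl, 4178461 to 8800987 in cKO and 552186 to 5396803 in dKO, so that depth moved with genotype, and the counts were also thinned to the lowest total in all mice. Levels are CPM, counts scaled to the total of the genes tested in each mouse, with TMM scaling. The cortical genes *Neurod6* and *Tbr1* were present in every mouse, at no less than 68.0 and 154 CPM.

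*Knl1* itself (chromosome 2, 119047119 to 119105501 of GRCm38) was at 48.2, 68.6 and 83.0 CPM in the lowest, median and highest ctrl mouse. It was at 50, 49.4, 78.7 and 49.0 CPM in cKO 5, 7, S2 and F3 and at 52.3, 60.2, 58.0 and 33.1 CPM in dKO T2, T8, F1 and F7. The groups overlapped. The pooled log2 fold change was −0.25 (standard error 0.19, edgeR adjusted p = 0.717), with 0.05 in cKO of batch 1 and −0.53 in dKO of batch 3 (adjusted p = 0.585). *Trp53* was at 25.7 CPM ± 5.83 (SD, n = 4) in dKO and 31.3 CPM ± 10.9 (SD, n = 7) in ctrl. Its pooled log2 fold change was −0.26 (adjusted p = 0.64). Reads over the whole gene from all cells of the cortex are counted, so that these levels do not check the genotype labels.

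Across the 10781 genes tested, 73 (0.677%) passed an FDR of 0.05 in the pooled comparison of 8 deleted with 7 ctrl mice with batch as a covariate (edgeR likelihood ratio test). Of these, 65 were lower and 8 higher in the deleted cortex, 0.603% and 0.0742% of the genes tested. The count was 13 without litter 4, 24 after thinning, 11 with only the wild-type ctrl mice and 8 by the quasi-likelihood test. Leaving out 1 mouse at a time it ranged from 15 without cKO 7 to 205 without cKO S2.

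To find the changes kept without p53, each genotype was set against the ctrl mice of its own batch, with no mouse in common: 3 cKO against 3 ctrl in batch 1, and 4 dKO against 3 ctrl in batch 3. A called gene was counted as shared where it moved the same way at an unadjusted p below 0.05 in both. There were 49 shared genes (0.455% of those tested), 45 lower and 4 higher. By this rule the directions are fixed, so the values that follow describe the shared genes and carry no test of their own. The 45 lower genes had a median log2 fold change of −0.78 in cKO and −0.72 in dKO, against −0.01 and 0.01 over all genes tested. The 4 higher genes had medians of 0.67 and 0.70.

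**Figure D1:**
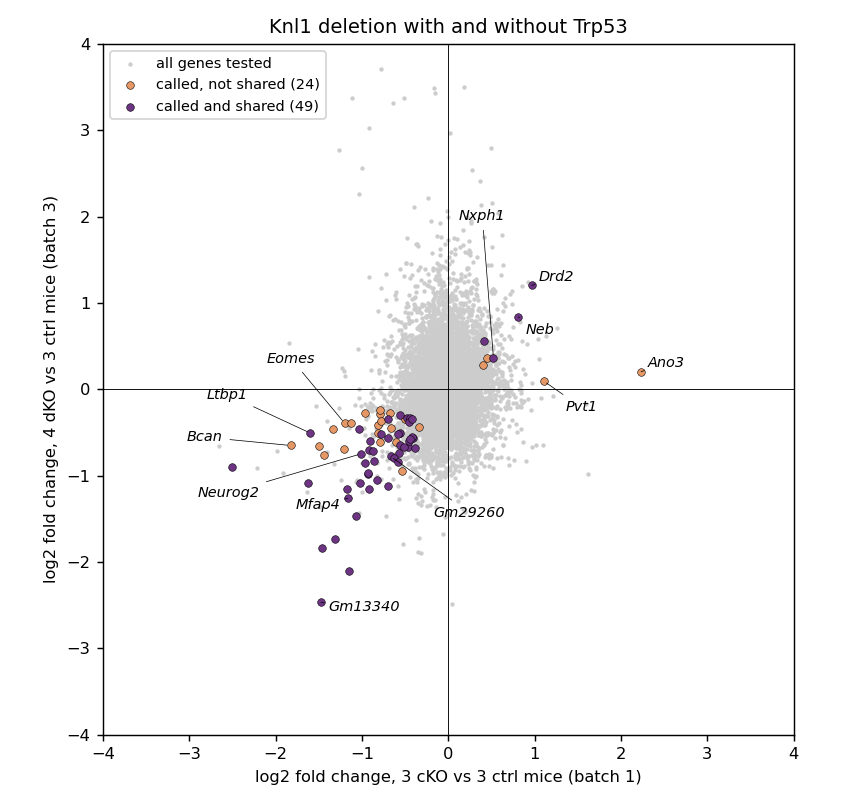
Log2 fold change of each gene in 3 cKO against 3 ctrl mice of batch 1 (horizontal axis) and in 4 dKO against 3 ctrl mice of batch 3 (vertical axis). Grey points are all genes tested, of which 3 lie outside the axes, orange points are the 24 called genes that were not shared and purple points the 49 that were. The shared genes sit in the lower left and upper right, while *Ano3*, *Pvt1* and *Eomes* lie closer to the horizontal axis.

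At an unadjusted p below 0.05, 527 genes (4.89%) were called in cKO, 1.59% of the genes tested higher and 3.3% lower, and 870 (8.07%) in dKO, 4.35% higher and 3.72% lower. Read over all genes, without the pooled call, 77 genes (0.714%) moved the same way at an unadjusted p below 0.05 in both within-batch comparisons and 12 (0.111%) moved opposite ways. The within-batch comparisons called few genes at an FDR of 0.05, 23 (0.213%) in cKO and 14 (0.13%) in dKO, and no gene passed it in both. Of the 19 genes called lower in cKO, 19 were also below 0 in dKO, with a median of −0.39 there against −0.97 in cKO, and 3 of them had an unadjusted p below 0.05, *Tbc1d4*, *Ltbp1* and *Gm26035*. Of the 10 called lower in dKO, 8 were also below 0 in cKO, and *Gm29260*, *Etl4* and *Gm13340* had an unadjusted p below 0.05. Over all 10781 genes tested, 5281 were below 0 in dKO and 5590 in cKO. The genes called higher were too few to set against these. Of the 4 called in cKO 2 were above 0 in dKO, and of the 4 called in dKO 2 were above 0 in cKO, none at an unadjusted p below 0.05. A direct test of cKO against dKO with batch as a covariate called 2 genes (0.0186%), *Ano3* and *Ltbp1*, and 405 (3.76%) had an unadjusted p below 0.05. In that 3-group fit of all 15 mice by the edgeR likelihood ratio test, 72 genes (0.668%) were called in cKO against ctrl. In dKO against the same ctrl mice 0 (0%) were called, and 599 (5.56%) had an unadjusted p below 0.05. Of the 49 shared genes, *Gm29260*, *Etl4* and *Gm13340* were the 3 that passed an FDR of 0.05 in dKO of batch 3, and the others met the rule there by an unadjusted p.

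The shared genes were then read mouse by mouse and litter by litter, although all of these mice entered the pooled call. In cKO F3, which stood outside the within-batch comparisons, 45 of the 45 lower genes were below and 4 of the 4 higher genes above the mean of the batch 3 ctrl mice. In litter 3 alone, dKO T2 and T8 against their littermates T3, T4 and T5, the fold change kept its sign in 45 of 45 and 4 of 4, at an unadjusted p below 0.05 in 19 and 1. Within litter 1 the deleted mean lay below the littermate ctrl mean for 45 of the 45 lower genes, and within litter 2, where S2 was the only deleted mouse, for 42. In batch 1 the 3 cKO mice lay below all 3 ctrl mice for 26 of the 45 lower genes and above them for 3 of the 4 higher genes, against 5.71% and 5.04% of all genes tested. In batch 3 the 4 dKO mice lay below all 3 ctrl mice for 29 and above them for 2, against 4.42% and 4.65%. In both batches together this held for 17 lower genes and 1 higher gene, against 0.399% and 0.204%, and since these values chose the genes nothing is read from it. Of the 49 shared genes, 49 kept their direction in every alternative fit of the pooled comparison in which they were tested. These fits reuse the mice that chose the genes, and the fit of batch 1 alone was part of the rule. The kept direction is therefore no separate test. How many stayed below an FDR of 0.05 varied with the fit. It was 3 with the batch 1 mice only, 5 with the wild-type ctrl mice only and 7 by the quasi-likelihood test. The number was 7 without litter 4, 14 after thinning, 27 with litter as covariate, which compares littermates, and 49 with RLE size factors. The median of the 45 lower genes was −0.69 without litter 4 and −0.73 after thinning.

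Of the named shared genes, 5 were called in all 15 fits leaving out 1 mouse, by the quasi-likelihood test, by DESeq2, without litter 4 and with litter as covariate: *Gm29260*, *Etl4*, *Tbc1d4*, *Ltbp1* and *Ankrd6*. With the wild-type ctrl mice only *Etl4* and *Ankrd6* lost the call, and after thinning *Tbc1d4* did. *Gm29260* is a long intergenic noncoding RNA on chromosome 1 (41781808 to 41939560, plus strand), whose nearest coding gene is the cortical transcription factor gene *Pou3f3*, 756208 bases away. It was at 499, 545 and 688 CPM in the lowest, median and highest ctrl mouse. It was at 248, 284, 447 and 357 CPM in cKO 5, 7, S2 and F3 and at 366, 384, 353 and 345 CPM in dKO T2, T8, F1 and F7. All 8 deleted mice lay below all 7 ctrl mice, which held for 6 of the genes tested (0.0557%). The pooled fall was 39.6% (log2 fold change −0.73, 95% interval −0.96 to −0.49, adjusted p = 1.54e-05), and the fold change was −0.67 in cKO and −0.78 in dKO. *Plcb1*, a phospholipase C that acts downstream of Gq-coupled receptors, was the other shared gene with no overlap. It was at 1051, 1111 and 1218 CPM in ctrl, 845, 615, 935 and 832 CPM in cKO and 900, 927, 865 and 876 CPM in dKO, a log2 fold change of −0.41 (standard error 0.10, adjusted p = 0.0237).

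*Etl4*, which encodes a Sickle tail protein expressed in notochord and neural tissue, was at 278, 375 and 437 CPM in the lowest, median and highest ctrl mouse. In cKO it was at 199, 237, 282 and 237 CPM and in dKO at 222, 303, 269 and 243 CPM. Only S2 and T8 reached the level of ctrl 2, the lowest ctrl mouse, and the pooled log2 fold change was −0.62 (standard error 0.11, adjusted p = 0.000186). *Tbc1d4*, a Rab GTPase-activating protein of glucose transporter traffic, was at 46.3, 59.4 and 77.0 CPM in ctrl, 32.0, 25, 41.5 and 42.1 CPM in cKO and 50.6, 45.9, 41.7 and 36.9 CPM in dKO. T2 was the only deleted mouse above ctrl S1, and the fold change was −0.77 (standard error 0.15, adjusted p = 0.000636). *Ankrd6*, or Diversin, an adaptor between canonical and planar polarity Wnt signalling, was at 102, 125 and 169 CPM in ctrl, 72.8, 65.6, 98 and 67.6 CPM in cKO and 105, 94.6, 94.9 and 79.2 CPM in dKO. Again T2 alone was inside the ctrl range, and the fold change was −0.68 (standard error 0.13, adjusted p = 0.000801).

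*Ltbp1*, a matrix protein that stores latent TGF-β, was shared in direction but not in size. Its levels were 68.0, 143 and 201 CPM in the lowest, median and highest ctrl mouse and 53.2, 42.3, 68.7 and 45.6 CPM in cKO. In dKO they were 108, 134, 92.2 and 71.7 CPM. Ctrl S1 was as low as the cKO mice, and the cKO mice lay below the other 6 ctrl mice. The dKO mice lay above the cKO mice, and T8 reached the level of ctrl T4. The log2 fold change was −1.60 in cKO (adjusted p = 9.05e-09) and −0.51 in dKO (adjusted p = 0.45), and the difference of the genotypes was −1.11 (standard error 0.25, adjusted p = 0.0364). In litter 3 alone the dKO value was −0.19.

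**Figure D2:**
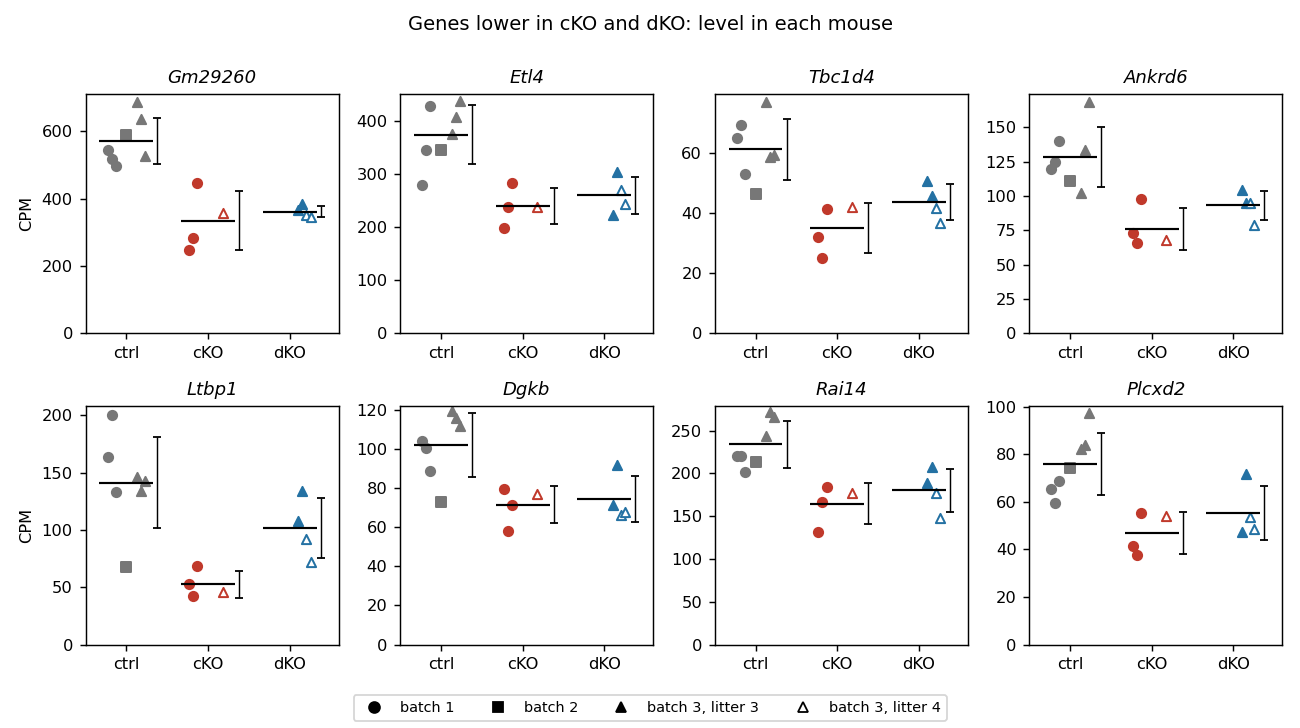
Level in CPM (vertical axes, from 0) of 8 shared lower genes in each mouse of the ctrl, cKO and dKO groups. Each point is 1 mouse, its shape gives the batch and an open triangle marks litter 4, the bar is the group mean and the whisker its SD. *Gm29260* shows no overlap between the 8 deleted and the 7 ctrl mice, and *Ltbp1* is lower in cKO than in dKO.

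*Dgkb*, a diacylglycerol kinase, was at 72.9, 104 and 119 CPM in the lowest, median and highest ctrl mouse, 79.7, 58.2, 71.7 and 77.0 CPM in cKO and 71.5, 91.7, 66.5 and 68.0 CPM in dKO. *Rai14*, an actin-bundling protein, was at 202, 221 and 272 CPM in ctrl, 131, 166, 184 and 177 CPM in cKO and 188, 207, 177 and 148 CPM in dKO. Both were called by the quasi-likelihood test, with log2 fold changes of −0.55 and −0.49 (adjusted p = 0.00158 and 0.00295), and in *Rai14* only T8 lay inside the ctrl range. Without litter 4, or with the wild-type ctrl mice only, both lost the call, as did *Dgkb* with litter as covariate and *Rai14* after thinning. *Vegfc*, the lymphatic growth factor that also acts on neural progenitors, had a log2 fold change of −0.63, and *Plcxd2*, a phospholipase-like protein, −0.59. *Htra1*, a secreted protease that cleaves matrix and TGF-β family proteins, had −1.23, but was at 1.09 to 19.0 CPM in ctrl and fully overlapped. The pseudogene *Gm13456* had −1.72 at a ctrl median of 8.81 CPM. *Gm11266* is antisense inside *Nfib* on chromosome 4 and fell with it (−0.86 and −0.38). Because the strand setting of the counting is not given in the sources used here, reads of these 2 overlapping genes cannot be told apart.

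Short sequence context is shown for 3 of the lower genes called by the quasi-likelihood test, *Etl4*, *Ankrd6* and *Rai14*. They were chosen after their values were seen because a window at an annotated start holds an E-box. The E-box is of the kind bound by the proneural factor NEUROG2, a gene that was itself lower. Only windows that hold the motif are shown. *Etl4* spans 19909780 to 20810713 and *Ankrd6* 32804035 to 32950841, so their windows lie at starts inside the gene, not at its outer 5′ end. The windows run from 250 bases before to 50 bases after a RefSeq transcript start (GRCm38.p6), 5′ to 3′, and capitals mark CAGATG, or CATCTG where the motif is on the other strand.
Etl4 chr2:20289663-20289962 (plus strand): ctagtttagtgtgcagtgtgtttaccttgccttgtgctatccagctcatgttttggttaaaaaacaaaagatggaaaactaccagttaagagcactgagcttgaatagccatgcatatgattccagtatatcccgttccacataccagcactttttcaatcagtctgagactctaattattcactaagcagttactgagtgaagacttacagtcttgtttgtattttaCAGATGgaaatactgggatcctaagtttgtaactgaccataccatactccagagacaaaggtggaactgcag
Ankrd6 chr4:32864484-32864783 (minus strand): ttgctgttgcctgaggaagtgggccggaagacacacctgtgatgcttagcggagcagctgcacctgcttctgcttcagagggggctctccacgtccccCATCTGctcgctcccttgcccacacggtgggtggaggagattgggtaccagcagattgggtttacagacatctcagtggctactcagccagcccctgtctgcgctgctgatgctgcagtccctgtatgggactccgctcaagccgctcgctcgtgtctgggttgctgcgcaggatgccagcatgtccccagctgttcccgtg
Rai14 chr15:10713491-10713790 (minus strand): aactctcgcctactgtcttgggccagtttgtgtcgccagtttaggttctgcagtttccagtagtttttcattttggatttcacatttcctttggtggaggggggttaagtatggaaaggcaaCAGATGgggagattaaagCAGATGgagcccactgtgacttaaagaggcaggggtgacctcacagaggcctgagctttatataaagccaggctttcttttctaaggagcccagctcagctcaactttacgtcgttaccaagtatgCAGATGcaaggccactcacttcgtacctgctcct
*Rai14* holds the letters 3 times. Of the 49 shared genes 31 have such a window, and 8 of them (25.8%) hold the motif in at least 1, against 19.2% of all 27025 genes with a window. Besides the 3 shown these were *Gm29260*, *Ltbp1*, *Col4a5*, *Slc17a6* and *Upk3bl*, and the windows of *Neurog2*, *Slc1a3* and *Tbc1d4* do not hold it. A match of letters is no evidence of binding.

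Genes of the progenitors lay mostly below 0 in both genotypes, and in bulk tissue fewer cells of a type and less RNA per cell cannot be told apart. Of 16 measured genes of a list of intermediate progenitor genes, 14 were below 0 in the pooled comparison and 2 above, and 4 fell at an FDR of 0.05 (of all genes tested, 0.603% fell). The median log2 fold change was −0.34 for the list, −0.38 in cKO and −0.27 in dKO, against −0.00282 over all genes. The list's summed level was 969, 1193 and 1346 CPM in the lowest, median and highest ctrl mouse, 740, 820, 1098 and 746 CPM in cKO 5, 7, S2 and F3 and 944, 1156, 960 and 790 CPM in dKO T2, T8, F1 and F7. The groups overlapped, with S2 and T8, the highest deleted mice, inside the ctrl range. S2 was below its ctrl littermates S1 and S3, at 1193 and 1346 CPM, and T8 was above its ctrl littermate T3, at 1131 CPM.

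*Neurog2*, the proneural transcription factor that starts excitatory differentiation, was at 24.7, 39.2 and 52.3 CPM in the lowest, median and highest ctrl mouse. It was at 10.8, 15.9, 28.2 and 10 CPM in cKO and 19.2, 36.3, 26 and 20.2 CPM in dKO. S2, T8 and F1 overlapped with ctrl, and the log2 fold change was −0.98 (standard error 0.26, adjusted p = 0.0335), −1.01 in cKO and −0.75 in dKO. *Mfap4*, a microfibril-associated protein gene expressed in the subventricular zone, was at 8.81, 14.3 and 28.3 CPM in ctrl, 3.14, 3.92, 11.1 and 6.90 CPM in cKO and 5.23, 14.3, 8.76 and 6.92 CPM in dKO. *Rhbdl3*, a rhomboid-like membrane protein, was at 59.9, 83.2 and 135 CPM in ctrl, 42.4, 44.8, 75.8 and 42.1 CPM in cKO and 64.6, 75.5, 58.9 and 42.1 CPM in dKO. Both were shared, with pooled log2 fold changes of −1.23 and −0.75 (adjusted p = 0.0212 and 0.0237). *Mfap4* overlaps *Mapk7*, on the opposite strand.

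*Eomes*, the T-box factor that defines intermediate progenitors, was called in the pooled comparison (−0.86, standard error 0.21, adjusted p = 0.0153) but was not shared. It was at 54.7, 77.3 and 96.5 CPM in the lowest, median and highest ctrl mouse, 27.3, 32.5, 47.8 and 29.1 CPM in cKO and 47.1, 69.7, 62.3 and 39.8 CPM in dKO. All 4 cKO mice lay below all ctrl mice, while 2 of the 4 dKO mice did. The log2 fold change was −1.2 in cKO (adjusted p = 0.00114) and −0.39 in dKO (adjusted p = 0.705). The difference between the genotypes, −0.86 (standard error 0.28), had an adjusted p of 0.906, so that a difference between the genotypes was not shown.

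All 21 measured genes of a radial glia list were below 0 in the pooled comparison, against 50.6% of all genes tested, and their median was −0.34. At an FDR of 0.05, 3 fell (of all genes tested, 0.603% fell). In cKO 21 and in dKO 18 of the 21 were below 0, with medians of −0.44 and −0.21. Over all 10781 genes tested, 5590 were below 0 in cKO and 5281 in dKO. *Tfap2c*, a transcription factor of basal progenitor fate, was at 16.5, 22.9 and 33.3 CPM in the lowest, median and highest ctrl mouse, 8.05, 9.79, 13.8 and 10.5 CPM in cKO and 15.7, 21.0, 18.1 and 9.42 CPM in dKO. *Gas1*, a co-receptor for sonic hedgehog, was at 12.8, 20.7 and 33.3 CPM in ctrl, 6.28, 9.54, 16.2 and 7.79 CPM in cKO and 8.72, 12.4, 13.0 and 9.22 CPM in dKO. *Slc1a3*, the glial glutamate transporter GLAST, was at 96.3, 136 and 167 CPM in ctrl, between 99.5 and 106 CPM in cKO and between 101 and 122 CPM in dKO. The log2 fold changes of the 3 genes were −0.98, −0.99 and −0.42 (adjusted p = 0.0145, 0.0399 and 0.0307). For *Slc1a3* ctrl S1 was lower than every deleted mouse, and for *Tfap2c* and *Gas1* 6 of the 8 deleted mice lay below all ctrl mice.

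Of 30 measured excitatory neuron genes, 15 were above and 15 below 0 in the pooled comparison, with a median of 0.00414. At an FDR of 0.05, 3 fell, all shared (of all genes tested, 0.603% fell). Within the batches 19 were below 0 in cKO and 21 in dKO, with medians of −0.07 and −0.06, and with litter as covariate 20 were below 0, with a median of −0.13. The list's summed level was 14710 to 17590 CPM in ctrl, 14840 to 16150 CPM in cKO and 14120 to 15360 CPM in dKO. Within batch 3 the 4 dKO mice lay below ctrl T3, T4 and T5, at 16720, 16590 and 16620 CPM, whereas ctrl S1 of batch 2 was at 14710 CPM. *Slc17a6*, the vesicular glutamate transporter VGLUT2, was at 78.4, 88.1 and 104 CPM in the lowest, median and highest ctrl mouse, 51.2, 52.9, 79.0 and 59.4 CPM in cKO and 48.9, 71.7, 65.6 and 70.7 CPM in dKO. *Unc5d*, a netrin receptor of neurons that have just left the subventricular zone, was at 1114, 1373 and 1611 CPM in ctrl, 959, 1050, 1028 and 1092 CPM in cKO and 1099, 1011, 1092 and 1204 CPM in dKO. In each gene 7 of the 8 deleted mice lay below all ctrl mice, with S2 and F7 as the exceptions. The log2 fold changes were −0.52 and −0.39 (adjusted p = 0.0206 and 0.0279). *Nfib*, a transcription factor of deep-layer neurons and glia, was at 2971 to 3781 CPM in ctrl, 2348 to 2932 CPM in cKO and 2557 to 3183 CPM in dKO (−0.38, adjusted p = 0.0335). *Tbr1* and *Neurod6*, markers of deep-layer and of all excitatory neurons, had log2 fold changes of 0.03 and −0.02 (adjusted p = 0.954 and 0.988), and their signs changed among the alternative fits. The progenitor and neuron calls were less firm than those above. *Eomes* and the 9 shared genes *Neurog2*, *Mfap4*, *Rhbdl3*, *Tfap2c*, *Gas1*, *Slc1a3*, *Slc17a6*, *Unc5d* and *Nfib* were not called by the quasi-likelihood test, without litter 4 or with the wild-type ctrl mice only, nor without cKO 5 or cKO 7, with the sign kept in each case. With litter as covariate *Neurog2*, *Mfap4*, *Gas1*, *Slc1a3* and *Nfib* also lost the call.

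**Figure D3:**
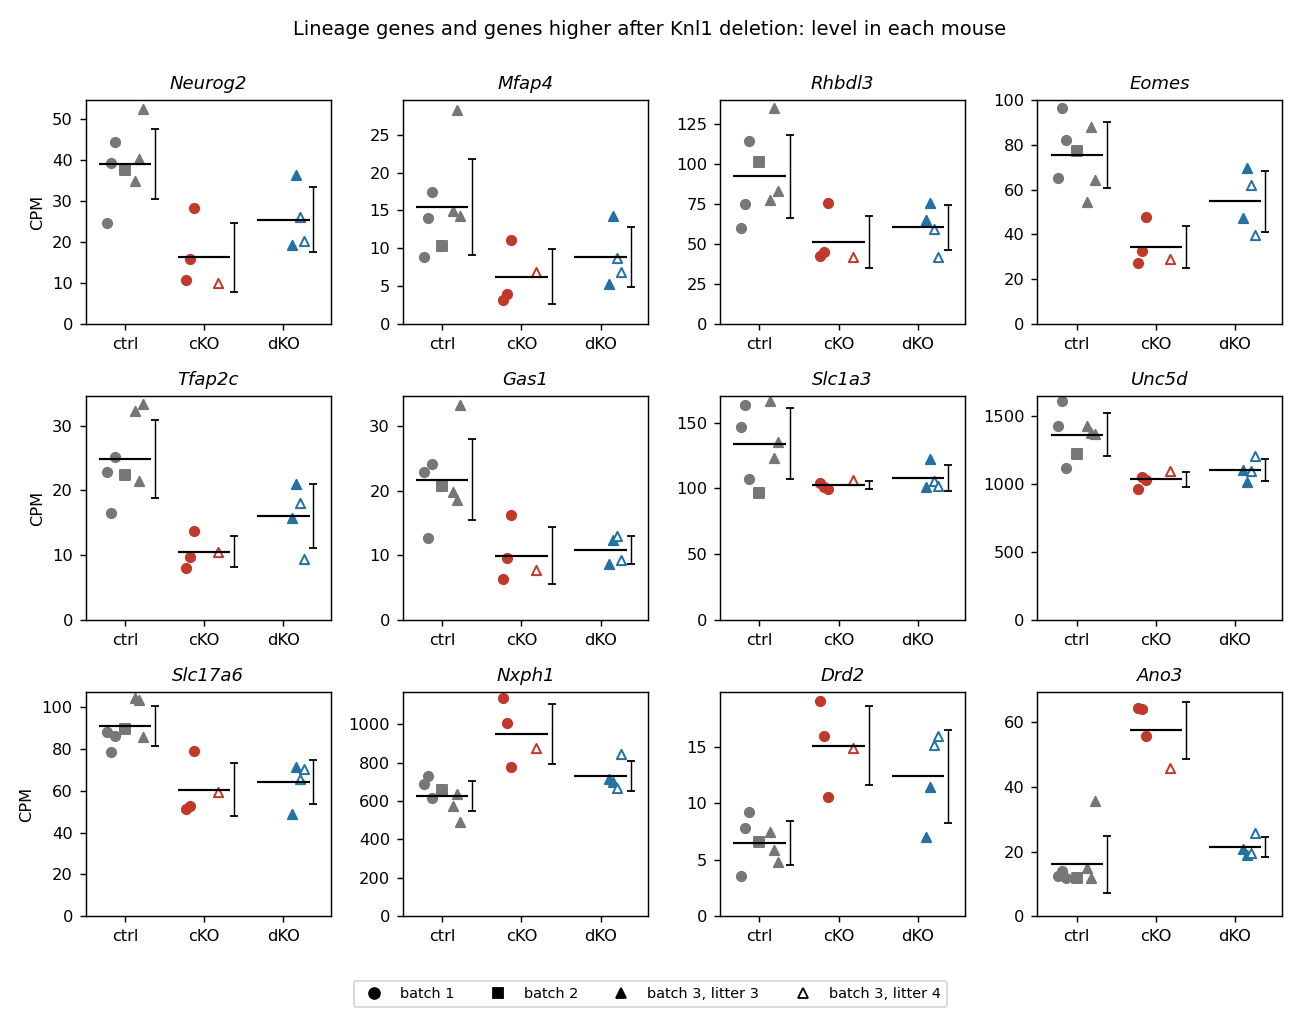
Level in CPM (vertical axes, from 0) of progenitor and neuron genes and of genes higher after *Knl1* deletion in each mouse, with the batch given by the point's shape, open triangles for litter 4, group means as bars and SD as whiskers. *Neurog2*, *Tfap2c* and *Gas1* are lower in most deleted mice, *Drd2* and *Nxph1* higher, and *Ano3* is at 45.8 CPM or more in every cKO mouse and at most 25.7 CPM in dKO.

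Cell cycle genes did not pass the test. Of 37 mitosis genes 34 were below 0, with a median of −0.19, against 50.6% of all genes tested. None passed an FDR of 0.05 by edgeR or DESeq2, while 2 were lower at an unadjusted p below 0.05. Without litter 4 the median was −0.05. The S phase list moved with that litter too, since its median went from −0.14 (24 of 27 below 0) to 0.02 (11 of 27) without it. With litter as covariate 18 of the 37 mitosis genes and 9 of the 27 S phase genes were below 0, with medians of 0.007 and 0.03. In cKO of batch 1 the medians were −0.03 and −0.07, and in dKO −0.32 and −0.17. The radial glia and intermediate progenitor medians without litter 4 were −0.27 and −0.31, with 21 of 21 and 15 of 16 below 0 and no call.

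**Figure D4:**
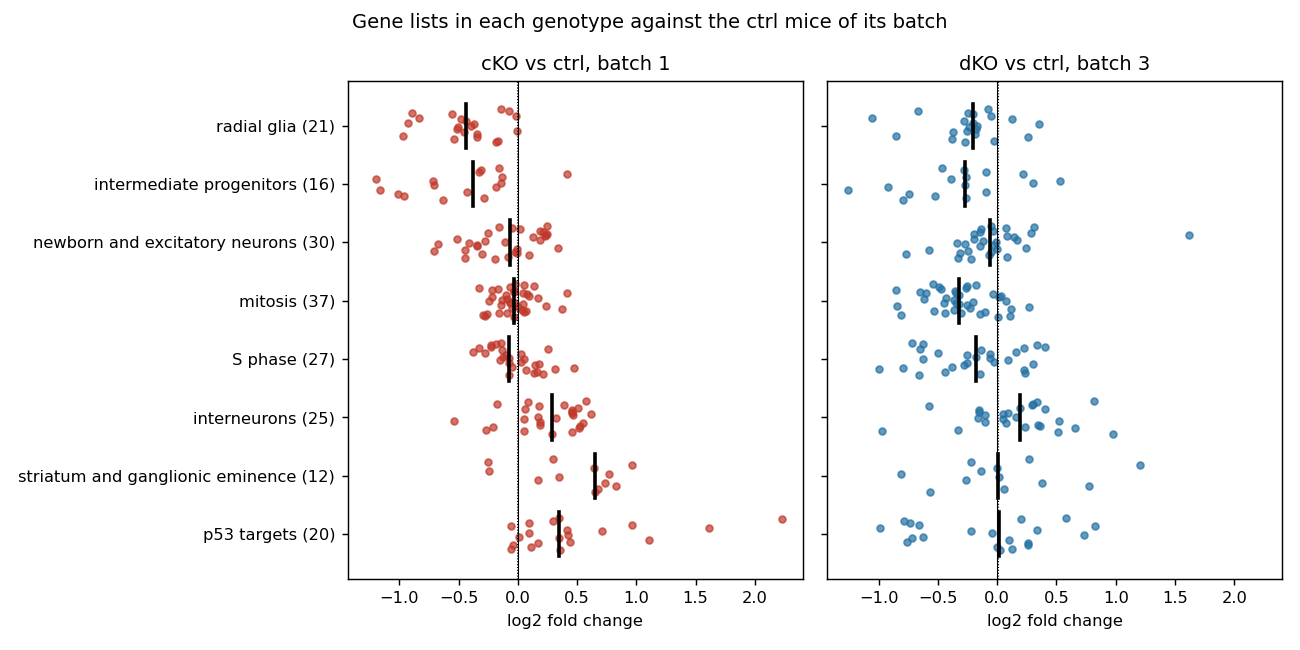
Log2 fold change (horizontal axes) of the measured members of 8 gene lists, each point 1 gene and each black bar the list's median, in cKO (left) and dKO (right) against the ctrl mice of the same batch, with the number of genes measured in parentheses. The dotted line is the median of all genes tested. The medians of the 2 progenitor lists lie below 0 in both genotypes and that of the interneuron list above 0 in both. Single members go the other way, such as 7 of 25 interneuron genes and 3 of 21 radial glia genes in dKO. The median of the p53 target list is at 0.35 in cKO and at 0.01 in dKO.

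Only 4 genes were higher and shared. *Nxph1*, a secreted ligand of neurexins expressed by cortical interneurons, was at 492, 635 and 728 CPM in the lowest, median and highest ctrl mouse, 1134, 1008, 779 and 875 CPM in cKO and 715, 698, 667 and 842 CPM in dKO. All cKO mice and F7 lay above all ctrl mice, and within each batch the groups did not overlap. The log2 fold change was 0.47 (standard error 0.11, adjusted p = 0.0153), 0.52 in cKO and 0.36 in dKO. *Drd2*, the dopamine receptor of striatal neurons, was at 3.52, 6.53 and 9.25 CPM in ctrl, 19.0, 15.9, 10.6 and 14.9 CPM in cKO and 6.98, 11.5, 15.1 and 15.9 CPM in dKO. T2 alone was inside the ctrl range, and the log2 fold change was 1.04 (standard error 0.26, adjusted p = 0.0203). These levels stand on few counts in the shallow mice, in which 3 counts are 7.50 CPM (T3). *Neb*, the thin-filament protein of muscle, had 0.88 (adjusted p = 0.0368), and the noncoding RNA *Gm16386* 0.46 (adjusted p = 0.0206), with 5 and 3 of the 8 deleted mice above all ctrl mice. None of the 4 was called by the quasi-likelihood test, without litter 4 or with the wild-type ctrl mice only.

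Most other interneuron genes leaned the same way without passing the test. Of 25 measured members of the interneuron list 19 were above 0 and 6 below, with a median of 0.19. *Nxph1* alone passed (of all genes tested, 0.0742% rose). At an unadjusted p below 0.05 in the edgeR likelihood ratio test, 7 were higher and 1 lower. In dKO 18 were above 0 and 7 below, with 3 higher and 2 lower at that p. The medians were 0.29 in cKO and 0.19 in dKO, 0.20 after thinning and 0.25 without litter 4. The list's summed level was 5452 to 6816 CPM in ctrl, 6441 to 8584 CPM in cKO and 5322 to 6774 CPM in dKO, so that the groups overlapped. Its median was 6062 CPM in ctrl, 7282 CPM in cKO and 5908 CPM in dKO, so the sum was not raised in dKO. *Ackr3*, *Slc32a1* and *Sst*, a chemokine receptor, the inhibitory vesicular transporter and the neuropeptide somatostatin, had log2 fold changes of 0.63, 0.60 and 0.70 (adjusted p = 0.211, 0.212 and 0.288). The lowest member of the list was at −0.375. Of 12 striatum and ganglionic eminence genes, 8 were above 0 and *Drd2* alone passed, with a median of 0.23 that was −0.05 after thinning. *Rarb*, a retinoic acid receptor of striatal neurons, had 0.79 (adjusted p = 0.211). The summed level of the striatal list was 1909 to 3257 CPM in ctrl, 2734 to 3243 CPM in cKO and 2654 to 3087 CPM in dKO. How much striatal tissue entered each dissection was not tested.

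The 24 called genes that were not shared were mostly those that missed the rule in dKO. Of these, 22 missed an unadjusted p of 0.05 in dKO and 2, *Plch1* and *Mir99ahg*, in cKO, yet 24 of 24 had the same sign in dKO as in the pooled comparison, which contains those mice. *Ano3*, a membrane protein of the anoctamin family on the p53 target list, was at 11.7, 12.3 and 35.7 CPM in the lowest, median and highest ctrl mouse, 64.6, 64.1, 55.9 and 45.8 CPM in cKO and 20.9, 19.1, 19.6 and 25.7 CPM in dKO. Its log2 fold change was 2.23 in cKO (adjusted p = 6.2e-24) and 0.21 in dKO (adjusted p = 0.928), and the genotypes differed by 1.34 (standard error 0.27, adjusted p = 0.00532). Ctrl T5 was higher than every dKO mouse, and after thinning *Ano3* lost the pooled call. *Pvt1*, a p53-responsive noncoding RNA next to *Myc*, had 1.1 in cKO and 0.10 in dKO, with a difference of 0.75 (adjusted p = 0.589). Of 20 measured p53 target genes 2 rose in the pooled comparison, *Ano3* and *Pvt1* (of all genes tested, 0.0742% rose). The list's medians were 0.35 in cKO and 0.01 in dKO. The list holds genes that the study picked from these mice, so its direction in cKO is not independent evidence. Its summed level was 534 to 606 CPM in ctrl, 730 to 818 CPM in cKO and 544 to 612 CPM in dKO.

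Among the lower genes that were not shared were *Bcan*, the perineuronal proteoglycan brevican (−1.31, adjusted p = 0.00858), and *Nfix* (−0.64, adjusted p = 0.0148). *Nfix* was at 401 to 941 CPM in ctrl, 389 to 429 CPM in cKO and 381 to 677 CPM in dKO, a log2 fold change of −0.97 in cKO and −0.28 in dKO. *Adamts19*, *Pcsk6* and *Col4a6*, 2 proteases and a basement membrane collagen chain, had −1.19, −1.03 and −1.28, and *Sfxn5*, a mitochondrial carrier next to *Emx1*, −0.67. *Emx1*, the homeobox gene of the dorsal cortex, did not pass the test (−0.63, adjusted p = 0.255). *Carmil1*, a regulator of actin capping, was the reverse case. All 8 deleted mice (182 to 232 CPM) lay above all 7 ctrl mice (152 to 174 CPM), as in 2 genes of those tested (0.0186%), and its log2 fold change was 0.35 (adjusted p = 0.0237), but the dKO comparison missed the rule at an unadjusted p of 0.0634. The threshold of the call lay in a dense region, with *Gm23624* and *Gatad2a* just inside at an adjusted p of 0.0477 and 0.0485 and *Kcnip1* and *Tpst1* just outside at 0.0501 and 0.0505.

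By kind, the 45 shared lower genes comprised 36 protein-coding genes, 1 lincRNA, 2 antisense RNAs, 1 processed transcript, 3 pseudogenes and 2 genes annotated as misc_RNA, on 19 chromosomes. Some further members, chosen after their values were seen, were *Fras1*, an extracellular matrix protein of basement membranes, *Col4a5*, a type IV collagen chain, *Heg1*, a transmembrane receptor of vascular junctions, and *Celsr1*, a cadherin of planar cell polarity. Their log2 fold changes were −0.58, −1.03, −0.53 and −0.80, and 6, 6, 7 and 6 of the 8 deleted mice lay below all ctrl mice. Since these mice chose the genes, nothing is read from those counts. For *Col4a5* the highest dKO mouse, at 36.3 CPM, was near the highest ctrl mouse, at 37.3 CPM. *Celsr1* was at −1.03 in cKO, −0.46 in dKO and −0.11 in litter 3 alone. The genotypes differed in it by −0.73 (unadjusted p = 0.0126, edgeR likelihood ratio test), without a call. With *Ltbp1* it made up the 2 shared lower genes whose difference had an unadjusted p below 0.05. *Smad6*, an inhibitor of BMP signalling, had −0.86 and *Onecut2*, a transcription factor of neuronal differentiation, −0.88. *Rlbp1*, a retinaldehyde-binding protein of glia, had −0.87. Of the 49 shared genes 25 were among the 2696 tested genes with the longest span in the annotation, at least 79.9 kb, and 20 were among the 2696 with the highest mean level. The 2695 genes with the lowest mean level held 13.

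Markers of other cell types did not pass the test apart from *Bcan*, which is on a list of oligodendrocyte precursor genes. The 5 measured genes of that list were mixed, with 3 below 0 and 2 above. At an unadjusted p below 0.05, 1 was lower and 2 were higher. The list's summed level was 194 to 304 CPM in ctrl, 276 to 369 CPM in cKO and 242.5 to 343 CPM in dKO. The meninges list had 5 measured genes, all below 0 with a median of −0.46, and its summed level was 116 to 410 CPM in ctrl, 133 to 157 CPM in cKO and 124 to 421 CPM in dKO. The endothelium and pericyte list had a median of 0.07 over 14 genes and the Cajal-Retzius cell list 0.10 over 9. DNA break repair, stress response and interferon genes had medians of −0.13, −0.05 and −0.12 over 26, 14 and 5 genes, with no call. The choroid plexus list had 2 measured genes and the red blood cell list 1. Of the microglia list 7 genes passed the filter on low counts, with a median of −0.14 and no call, and the defining markers *Aif1*, *P2ry12* and *Tmem119* did not exceed 1.09, 3.12 and 0.93 CPM in any mouse. The part of these cell types in the shared genes was not tested.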

How the data were processed

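The authors trimmed Click-seq reads with cutadapt 1.13, aligned them to GRCm38/mm10 with STAR 2.5.2a, removed PCR copies by UMI with UMI-tools 0.5.3 and counted reads with HTSeq 0.6.1p1, in intersection-nonempty mode, per the study's methods and the submitters' processing notes. The counted feature, strand setting and annotation release are not given in the sources used here. The deposited values are raw counts per gene, 1 file per library. The 5 HTSeq summary lines, 21.6% to 38.7% of a library, were left out. Libraries S2 and S2b, which share a mouse name, were summed, and their counts differed by a chi-square of 1.14 per degree of freedom against 3.56 to 27.4 for other pairs of cKO libraries. Separate mice are the replicates. With batch as covariate ctrl S1 carries no information.

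Genes passing filterByExpr (10781 of 27394 with a count and 51912 listed) were fitted with edgeR 4.0.16 in R 4.3.3, using TMM, glmFit and glmLRT with batch as covariate and Benjamini-Hochberg FDR, after the study's test. Names and coordinates came from GENCODE M21, promoters from RefSeq. DESeq2 1.42.0 and the other alternatives are given in the closing section. The groups and gene lists were chosen with earlier results of these data known. Named by rule were *Knl1*, *Trp53*, the 12 shared genes of smallest p per direction, 5 called but unshared genes per direction, called genes that differed between genotypes, called or leading list members, and 4 cortical markers. Some genes are not reported here. *Plcb1*, *Heg1*, *Celsr1*, *Smad6*, *Fras1*, *Col4a5*, *Onecut2*, *Rlbp1*, *Nfix*, *Plch1* and *Mir99ahg* were chosen after their values were seen.

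The fits were tested on simulated counts for 10781 genes, in which the pooled comparison recovered 7 of 67 genes changed by 0.5 on the log2 scale, 33 of 67 at 0.8 and 59 of 66 at 1.2, with 7 false calls. Both genotypes were given the same fold, so the power of the test of their difference was not measured. The simulated counts had the same dispersion for every gene and no batch or litter effect. These numbers therefore do not measure the error or power of the fit to the real mice. A floor of 3 counts was between 0.341 CPM (S2) and 7.50 CPM (T3), for counting error only. Figures were drawn with matplotlib.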

Additional observations from a re-analysis of the deposited data

Results flagged for a closer look

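The levels of 40 of the named genes were examined in each of the 3 groups, and in 10 of 120 groups 1 mouse stood far from the rest of its group. Chance gives such a mouse in about 1 of 20 groups. In cKO mouse S2 this held for *Sfxn5* (60.1 CPM against at most 45.2 in the other cKO mice), *Rhbdl3* (75.8 CPM against at most 44.8), *Knl1* (78.7 CPM against at most 50) and *Pcsk6* (4.12 CPM against at least 6.01). In cKO mouse 5 *Gm13456* was at 1.37 CPM against at least 2.89. In dKO mouse T8 *Nfib* was at 3180 CPM against at most 2650 and *Col4a6* at 21.0 CPM against at most 7.56. In dKO mouse T2 *Htra1* was at 10.5 CPM against at most 4.84 and *Neurod6* at 68.0 CPM against at least 115. In ctrl mouse T5 *Ano3* was at 35.7 CPM against at most 14.9.

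A pair of called genes differed between the genotypes in the direct test of cKO minus dKO. *Ltbp1* differed by −1.11 on the log2 scale (adjusted p = 0.0364) and *Ano3* by 1.34 (adjusted p = 0.00532).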

How the results depend on the processing

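The counts given above are, in order, pooled 73, cKO in batch 1 23, dKO in batch 3 14, difference of genotypes 2 and shared 49. The quasi-likelihood test gave 8, 1, 1, 0 and 7, with 405 genes for the difference at an unadjusted p below 0.05 by the likelihood ratio test. DESeq2 gave 11, 2 and 1 for the 3 smaller comparisons, no filter on low counts gave 38 pooled, 31 dKO and 27 shared, and thinning gave 24, 8 and 22 for the first 3 and 13 shared. Without litter 4 there were 13 pooled, 4 dKO and 6 shared genes. An unadjusted p below 0.01 in both batches left 14 shared. With litter as covariate cKO had 135 calls and the difference 7, and without covariate the difference had 4. Joining S1 to batch 1, or wild-type ctrl mice only, gave 1 for the difference, and the latter 11 pooled. Leaving out 1 mouse gave 15 to 205 pooled, 8 to 126 cKO, 1 to 171 dKO, 0 to 2 difference and 12 to 116 shared. The lowest counts came without cKO 7 (pooled, cKO, shared), ctrl T3 (dKO) and dKO F1 (difference), the highest without cKO S2 (pooled, cKO) and dKO T8 (dKO, shared). The cause was not tested. Medians of gene lists and the direction of the shared genes under these settings were added after the data were seen.

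No called gene reversed among the 40 named genes refitted. Of the uncalled ones, *Knl1* was 0.0036 thinned and 0.048 in batch 1. *Trp53* was 0.018 thinned and 0.010 in batch 3. *Tbr1* was −0.071 thinned, −0.032 in batch 3 and −0.0063 to 0.070 leaving out 1 mouse. *Neurod6* was 0.039 without filter, 0.13 thinned, 0.031 without covariate, 0.0055 with S1 joined, 0.074 in batch 3 and −0.11 to 0.13 leaving out 1 mouse. Mouse names are not shared between groups, so littermates were compared by the fit with litter as covariate, with 49 pooled calls. Single genes at a few CPM are limited by the shallow ctrl mice.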
